A study of Mus musculus with 33 samples.

Results

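The genes of oxidative phosphorylation studied here are 54 genes, 50 encoded in the nucleus and 4 in the mitochondrial genome, taken from a list of named members and found in the files by their gene symbols. All 50 nuclear members had counts among the 38355 genes listed for aged mice, and 49 had an FPKM among the 40678 loci listed for young mice, where Cox4i1 was the member without a locus. In 5 members the FPKM belong to a locus joined with neighbouring genes (Ndufa13 with Cilp2 and Yjefn3, Ndufb2 with Adck2, Ndufb8 with Gm20538 and Sec31b, Uqcrb with Mterfd1, Cox8a with Otub1). The 4 mitochondrially encoded members, mt-Nd1, mt-Nd2, mt-Co1 and mt-Cytb, had no value in the files used and were not analysed here.

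Oxidative phosphorylation takes place in the inner mitochondrial membrane. Complex I takes electrons from NADH and complex II from succinate, complex III passes them to cytochrome c, and complex IV hands them to oxygen, while complexes I, III and IV pump protons whose return through ATP synthase drives the making of ATP. Neurons depend on this pathway for the ion pumping that follows synaptic activity. The nuclear members comprise 6 core subunits and 20 accessory subunits of complex I, 4 subunits of complex II, 7 of complex III, cytochrome c (Cycs), 11 subunits of complex IV with Ndufa4, and Ppargc1a, a coactivator of transcription that promotes the making of mitochondria.

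RNA from the microdissected CA1 region of the hippocampus was sequenced in 2 experiments. In aged mice of 8 to 10 months, 6 APP mice received intraperitoneal JQ1 at 50 mg per kg for 10 days (APP JQ1), 6 APP mice received vehicle with 10% DMSO for 10 days (APP vehicle), and 4 WT mice received the same vehicle for 10 days (aged WT vehicle). The APP mice are of the APP/PS1-21 line in a C57B/6 background, whose transgenes are driven by the Thy1 promoter and so act mainly in neurons. The strain label of the aged WT mice also names this line, whereas their titles call them WT, and another such mouse, replicate 2, had no values and was not analysed here. In young WT mice of the C57B/6JRj strain, 3 months of age, 8 received JQ1 at 50 mg per kg for 13 days (young WT JQ1) and 8 received vehicle with 10% DMSO for 13 days (young WT vehicle). JQ1 blocks the bromodomains with which BET proteins bind acetylated histones, and the comparisons ask how transcript levels in CA1 differ with JQ1 in each kind of mouse and between APP and WT mice. Whole tissue was sequenced, so a lower level cannot be told apart from fewer cells of the type that holds the transcript.

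In aged mice the counts per mouse summed to between 14605459 and 25339482, and 3 reads correspond to at most 0.205 CPM (counts scaled by library size), while the lowest count of any member in any mouse was 142. CA1 markers (8 genes, among them Wfs1 and Fibcd1) were present in every mouse, with a sum of 5488 to 8732 CPM in aged mice. The library labelled APP JQ1 replicate 4 went against its label, with Thy1 at 819 CPM, App at 1779 CPM, the microglial gene Cst7 at 0 and the astrocytic gene Gfap at 322 CPM. In the aged WT mice Thy1 lay between 840 and 1070 CPM and Gfap between 249 and 321 CPM, whereas in the other 11 APP mice Thy1 lay between 1616 and 2341 CPM and Gfap between 1261 and 5162 CPM. Aged WT replicate 4 held choroid plexus RNA, with Ttr at 3062 CPM against at most 115 CPM in every other mouse. Microglial markers summed to 608 to 1098 CPM in APP vehicle mice and to 314 to 347 CPM in aged WT mice, and the part of such differences in the member values was not tested.

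The members are abundant transcripts. In aged mice their median level per length was 75.0 CPM per kb of exons, against 4.55 for the 16770 tested genes with a known length, and 41 of the 50 members were among the top 10% of these genes. In young mice the median was 121 FPKM (fragments scaled by transcript length and library size), against 6.73 over the 18420 tested loci. The levels differed widely among the members of each complex, as the plot of levels per length shows.

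**Figure D1:**
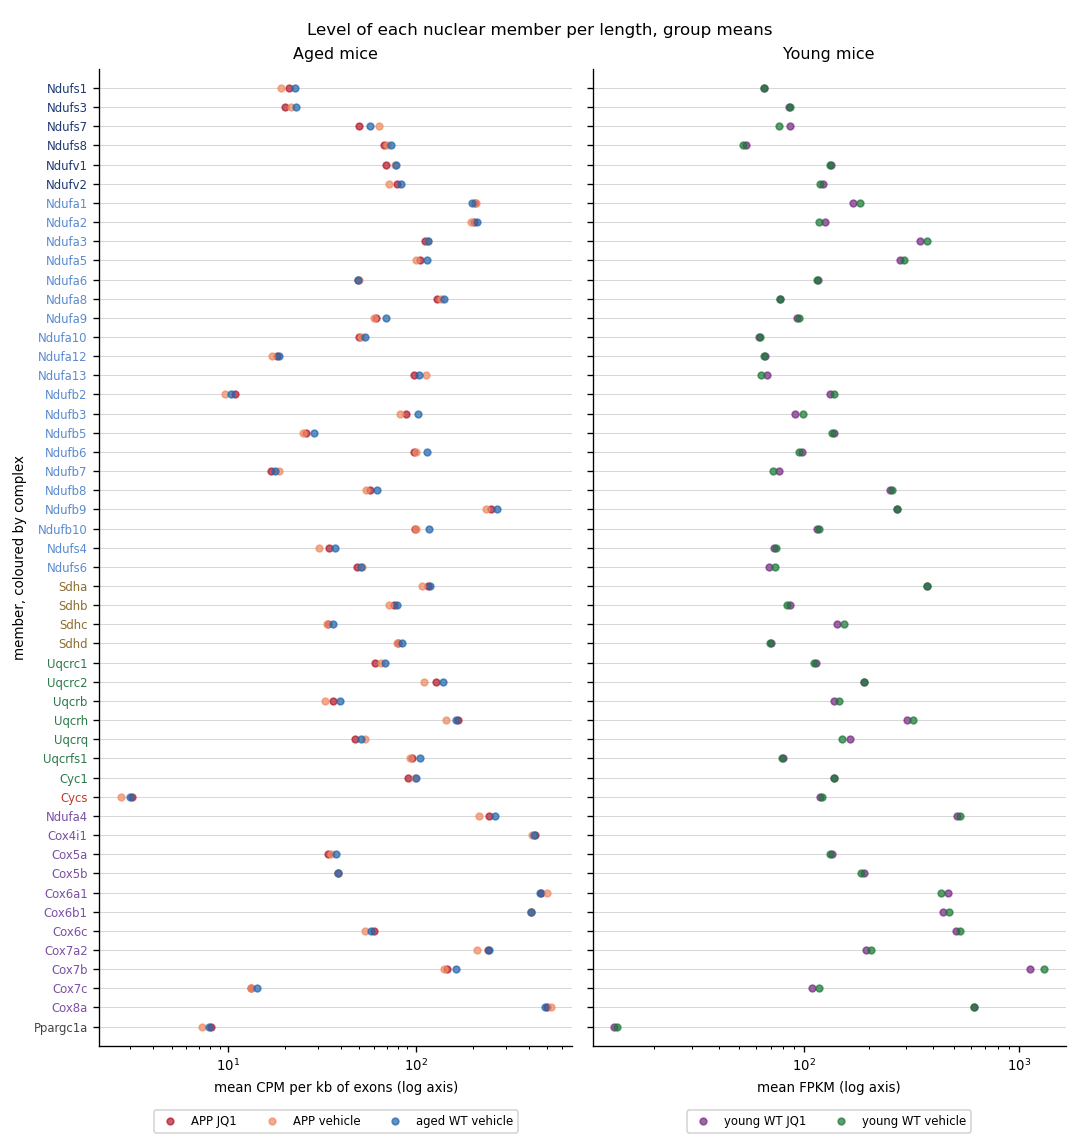
Mean level of each nuclear member per length, as CPM per kb of exons in aged mice (left, 3 groups) and FPKM in young mice (right, 2 groups), both on a log axis, with gene names coloured by complex. The points of the groups lie close together for each gene, while genes differ by far more, from Cycs at 2.92 to Cox8a at 505 CPM per kb over the aged mice.

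Of complex IV, Cox8a (505 CPM per kb), Cox6a1 (474), Cox4i1 (424) and Cox6b1 (408) were the highest of all members in aged mice, and Cox7c (13.5) was the lowest of its complex. Of complex I, the highest level per length was that of the accessory subunit Ndufb9 (249 CPM per kb) and the lowest that of Ndufb2 (10.3), and among its core subunits Ndufv2 was highest (77.2) and Ndufs1 lowest (20.7). In complex II, Sdha, the flavoprotein that oxidizes succinate, was highest (114) and Sdhc, a membrane anchor, lowest (34.3). In complex III, Uqcrh, the hinge protein, was highest (158) and Uqcrb lowest (35.7). Ppargc1a, which is no subunit, stood at 7.73 CPM per kb. The length used is that of all annotated exons of a gene together, 5628 bases for Ndufb2 and 763 for Ndufb3. These 2 genes had 54.3 and 62.4 CPM in APP vehicle mice, yet 10.3 and 89.3 CPM per kb over the aged mice. The order of members per length therefore also depends on the annotated exons.

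In young mice the order changed in places, with Cox7b highest at 1219 FPKM, followed by Cox8a (620), Ndufa4 (524) and Cox6c (523), and with Ppargc1a lowest at 13.2 FPKM. The log2 levels per length in aged and young mice had a Pearson correlation of 0.58 over the 44 members with a locus of their own, which describes these libraries and their counting. The 2 sets were quantified with different programs, and the aged levels use the length of all annotated exons. Cycs stood apart, being the lowest member in aged mice (2.92 CPM per kb) and of middle rank in young mice (120 FPKM, 27 of 49). Of the 50-base words in its longest transcript, 28.5% also occur in transcripts of 76 other genes, so some of its reads could be placed in several copies. Shared words were also many in Ndufs3 (39.7% of words, 3 other genes), Ndufb6 (34.1%, 1 gene), Ndufa13 (28.5%, 2 genes) and Cox7c (27.9%, 3 genes). The same holds for Cox5b (25.9%, 1 gene) and Uqcrc2 (24.8%, 1 gene). The part of such reads in the levels of these members was not tested.

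Promoters were inspected because the nuclear members lie on many chromosomes and share no locus, and short words of factors known to act on such genes could be counted. Of the 50 nuclear members, 40 matched a RefSeq promoter window (GRCm38.p6, 250 bases before to 50 after the start). On either strand, CCGGAAG, the core of ETS factors such as GABP, was in 10 of the 40 (25%) and in 9.93% of the 27025 genes with a window. GCATGCG or CGCATGC, parts of the palindrome bound by NRF1 that overlap each other, were in 6 of 40 (15%, against 4.01%), and AAGATGG, a YY1 word, in 7 of 40 (17.5%, against 7.28%). GGGCGG, the GC box, was in 18 of 40 (45%, against 38.2%), and AAGGTCA, the word of estrogen-related receptors, in 2 of 40 (5%, against 5.38%). The windows of 3 members are shown 5′ to 3′ on the strand of the gene, with the words found in capitals. Ndufs7 (chr10:80249199-80249498, plus strand) is shown because it had the lowest p of any member, and holds a YY1 word from base 275. Cycs (chr6:50566520-50566819, minus strand) holds the NRF1 words from bases 190 and 191 and a GC box from base 282, and Cox6a1 (chr5:115348909-115349208, minus strand) holds NRF1 words from base 90, GC boxes from bases 112 and 207 and an ETS word from base 235.
Ndufs7: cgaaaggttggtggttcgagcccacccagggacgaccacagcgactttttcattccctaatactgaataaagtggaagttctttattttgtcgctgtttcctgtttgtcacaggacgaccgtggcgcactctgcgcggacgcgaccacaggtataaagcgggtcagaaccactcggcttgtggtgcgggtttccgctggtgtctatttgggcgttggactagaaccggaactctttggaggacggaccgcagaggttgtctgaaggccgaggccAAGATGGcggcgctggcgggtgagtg
Cycs: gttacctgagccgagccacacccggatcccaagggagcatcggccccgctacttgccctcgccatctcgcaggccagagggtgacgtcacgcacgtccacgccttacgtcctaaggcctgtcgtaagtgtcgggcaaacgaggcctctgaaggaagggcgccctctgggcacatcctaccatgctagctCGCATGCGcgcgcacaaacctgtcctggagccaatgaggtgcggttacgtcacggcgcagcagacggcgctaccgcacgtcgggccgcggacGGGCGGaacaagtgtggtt
Cox6a1: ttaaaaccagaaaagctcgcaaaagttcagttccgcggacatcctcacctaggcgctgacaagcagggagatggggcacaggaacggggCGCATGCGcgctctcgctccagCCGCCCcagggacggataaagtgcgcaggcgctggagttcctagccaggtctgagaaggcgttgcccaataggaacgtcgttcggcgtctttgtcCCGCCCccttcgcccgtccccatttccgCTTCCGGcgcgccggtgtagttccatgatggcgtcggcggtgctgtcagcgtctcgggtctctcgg

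The members varied together from mouse to mouse. In each aged mouse the deviation of every member from its mean over the 16 aged mice was taken on the log2 scale, and the median over the 50 members was the level of that mouse. In the APP JQ1 group the level ranged from -0.23 to 0.19 with a median of 0.012, and in the APP vehicle group from -0.39 to 0.12 with a median of 0.037. The 4 aged WT mice had 0.38, -0.022, -0.080 and -0.051. The groups overlapped, and single mice set their ends. Aged WT replicate 1 was the highest mouse of its group in 44 of 50 members, and APP vehicle replicate 2 the lowest of its group in 46 of 50. The within-group SD of the level was 0.20 in aged mice and 0.11 in young mice.

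The share of reads outside exons rises with unspliced RNA or genomic DNA in a library. It tended to be lower in mice of higher member level, with exceptions. It was 26.9%, 24.5% and 24.5% in APP JQ1 replicate 2, APP JQ1 replicate 5 and APP vehicle replicate 2, the 3 mice with the lowest member level, and between 15.4% and 22.3% in the other 13 mice. Aged WT replicate 1 and APP JQ1 replicate 4, the mice of highest level (0.38 and 0.19), had shares of 16.33% and 17.05%. An exception was APP JQ1 replicate 6, with the third highest level (0.17) and the fifth highest share (21.9%). The shares of the 8 mice of higher level (15.4% to 21.9%) and the 8 of lower level (17.4% to 26.9%) overlapped. The part of this share in the member level was not tested. Markers of the adjoining dentate gyrus and CA3 (6 genes) summed to 143 CPM in aged WT replicate 1, the mouse with the highest member level, within the range of 106 to 218 CPM of all aged mice. Among them Prox1 (19.5 CPM) and C1ql2 (5.58 CPM) were lowest of all aged mice there and Grik4 (64.3 CPM) and Nectin3 (42.3 CPM) highest. The CA1 marker Wfs1 was also lowest in this mouse (160 CPM, up to 343 CPM in the others). The CA1 markers Fibcd1 (207.5 CPM) and Slc17a7 (1307 CPM) lay within the range of the other mice. So did the sum of all CA1 markers, at 6946 CPM. Over all aged mice Prox1 tended to be lower at higher member level. It ran from 19.5 to 77.5 CPM in the 8 mice of higher level and from 45.5 to 82.7 CPM in the 8 of lower level. The part of these markers in the member level was not tested. In young mice the level ran from -0.20 to 0.20 with JQ1 and from -0.12 to 0.18 with vehicle.

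**Figure D2:**
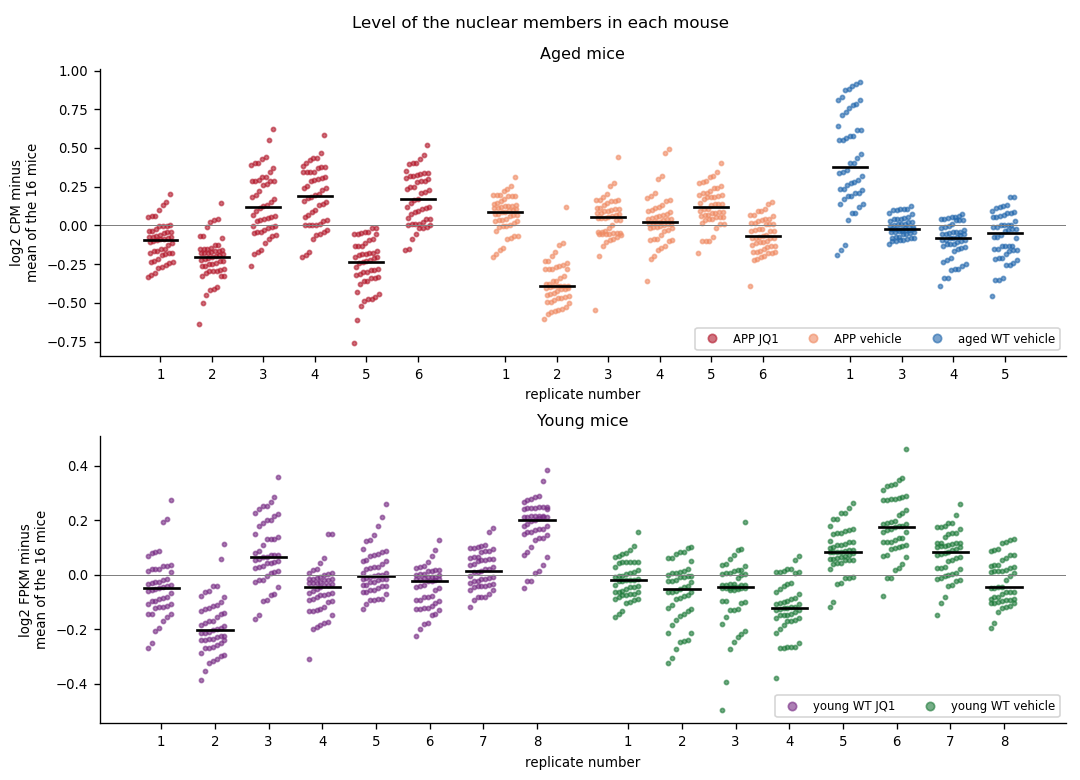
Log2 value of each nuclear member minus its mean over the 16 mice of the experiment, per mouse (x axis: replicate number within each group; top, CPM of aged mice; bottom, FPKM of young mice), where each point is a gene and each bar the median. Nearly all points of APP vehicle replicate 2 lie below 0 (median -0.39) and nearly all of aged WT replicate 1 above 0 (median 0.38), while the other mice lie between.

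The first comparison asks what JQ1 changed in APP mice. No member passed an adjusted p of 0.05 (edgeR quasi-likelihood test with Benjamini-Hochberg adjustment over the 16962 genes tested), where 1.08% of all genes did. An unadjusted p under 0.05 was found for 1 of 50 members, Ndufs7, against 17.6% of all genes, and in no member did the values of the 2 groups lie wholly apart, against 2.03% of all genes. Log2 fold changes of JQ1 against vehicle were above 0 in 28 members and below 0 in 22 (50.2% of all genes were below 0), with a median of 0.034 and a range of -0.37 to 0.22. The median over all genes tested was -0.0010. Every 95% interval of the 50 members lay within 1 log2 unit of 0, and 37 of them within 0.5. With DESeq2, 1 member, Ndufs7, passed, as did 749 of the 14049 genes given an adjusted p. Without APP vehicle replicate 2, which was low in nearly all members, the median of the members was -0.029 and 18 were above 0, and without the library labelled APP JQ1 replicate 4 it was -0.0069 with 23 above 0. In the other direction, it was 0.082 with 34 above 0 without APP JQ1 replicate 2, 0.076 with 35 without APP JQ1 replicate 5, and 0.11 with 39 with the share of reads outside exons as a covariate.

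Ndufs7 (ENSMUSG00000020153, chr10:80249121-80256794 in GRCm38, plus strand) encodes a core subunit of complex I that carries the last iron-sulfur cluster before ubiquinone. Its values ran from 81.2 to 88.9 CPM with a median of 85.9 in APP JQ1 mice, from 82.0 to 131 CPM with a median of 112 in APP vehicle mice, and were 84.4, 99.1, 99.4 and 109 CPM in aged WT mice. All 6 JQ1-treated mice lay below the vehicle median, and APP vehicle replicate 2, at 82.0 CPM, was the vehicle mouse within the range of the JQ1 group. The log2 fold change was -0.37 (SE 0.094, adjusted p = 0.063 with edgeR), and an exact two-sided permutation test of the 6 and 6 mice gave p = 0.011. The adjusted p was 0.0097 without APP vehicle replicate 2, 0.039 without aged WT replicate 1 and 0.014 with DESeq2, so that the call depends on single mice and on the tool. It was 0.13 without APP JQ1 replicate 4. With an offset for GC content and length the log2 fold change was -0.13 (adjusted p = 0.65, edgeR), and over all 26 alternatives the adjusted p ran from 0.0046 to 0.65. The GC content of its exons is 59.6%, among the higher of the members.

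Of the other core subunits of complex I, Ndufv1, which binds NADH, had 146 to 197 CPM (median 190) with JQ1 and 170 to 218 CPM (median 208) with vehicle, a log2 fold change of -0.15 (SE 0.080, adjusted p = 0.33, edgeR). Ndufs1, the largest core subunit, had 155 to 192 CPM (median 162) with JQ1 and 142 to 162 CPM (median 156) with vehicle, a log2 fold change of 0.14 (SE 0.0745, adjusted p = 0.36, edgeR). The 6 core subunits had log2 fold changes of either sign, with 2 above 0 and a median of -0.083. Of the 20 accessory subunits 10 were above 0, with a median of 0.014. Ndufa13, also known as a factor in cell death, had 106 to 144 CPM (median 118) against 107 to 158 CPM (median 145), a log2 fold change of -0.20 (SE 0.098, adjusted p = 0.29, edgeR). Ndufb7 had 69.5 to 89.8 CPM (median 76.7) against 65.9 to 97.8 CPM (median 86.1), a log2 fold change of -0.14 (SE 0.089, adjusted p = 0.42, edgeR). The groups overlapped in all of these.

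All 4 subunits of complex II had a log2 fold change above 0, from 0.0093 to 0.11, though only 2 of them with the GC and length offset or without APP vehicle replicate 2. Sdha had 444 to 552 CPM (median 460) with JQ1 and 421 to 465 CPM (median 441) with vehicle, a log2 fold change of 0.11 (SE 0.070, adjusted p = 0.42, edgeR). Complex III had 4 of 7 subunits above 0 and a median of 0.040, and complex IV had 6 of 11 above 0 and a median of 0.0050. Cycs, the mobile carrier between complexes III and IV, had 8.04 to 13.2 CPM (median 10.8) with JQ1 and 7.65 to 10.5 CPM (median 9.06) with vehicle, a log2 fold change of 0.20 (SE 0.14, adjusted p = 0.49, edgeR). Ppargc1a had 44.7 to 68.3 CPM (median 49.7) with JQ1 and 34.5 to 55.9 CPM (median 49.2) with vehicle, a log2 fold change of 0.15 (SE 0.12, adjusted p = 0.57, edgeR). None of these genes passed the test. All 6 JQ1-treated mice lay above the vehicle median for Sdha, though the groups overlapped.

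**Figure D3:**
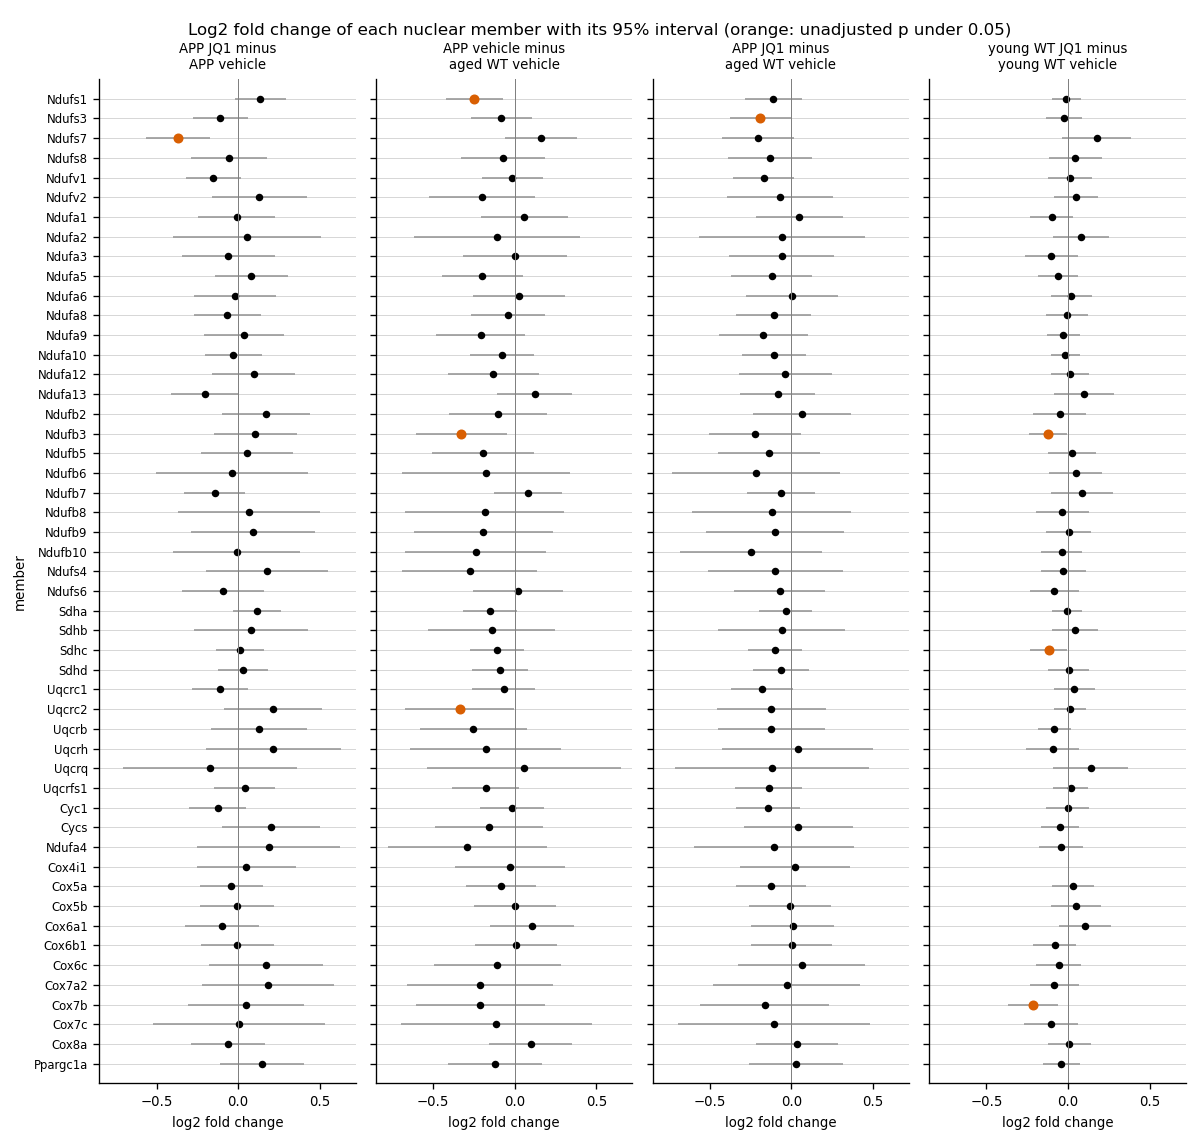
Log2 fold change of each nuclear member (points) with its 95% interval (lines) in the 4 comparisons, from edgeR in aged and limma in young mice, in the same order of genes, with an unadjusted p under 0.05 in orange. The intervals of most members cross 0, members lie on both sides of 0 with JQ1 in APP mice (28 of 50 above), and most lie below 0 in vehicle-treated APP against aged WT mice (40 of 50).

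The sign of the JQ1 log2 fold change followed the base composition of the genes. Of the 25 members with an exonic GC content of at least 49.3%, 8 were above 0 with a median of -0.056, and of the 25 with a lower GC content 20 were above 0 with a median of 0.10. Tested genes in the same GC span moved alike, with a median of -0.11 over the 8677 genes above and 0.11 over the 7479 genes below that value. Across the 50 members Pearson's r of log2 fold change with GC content was -0.66, a description over genes that share libraries and are not independent. With an offset for GC content and length, the order turned, with 17 of the 25 GC-rich members and 7 of the 25 others above 0. In vehicle-treated APP against aged WT mice, which shares the APP vehicle mice with this comparison, r was 0.64, and in JQ1-treated APP against aged WT mice it was -0.047. With APP vehicle replicate 2 and aged WT replicate 1 left out, the 3 values were -0.66, 0.24 and -0.40.

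**Figure D4:**
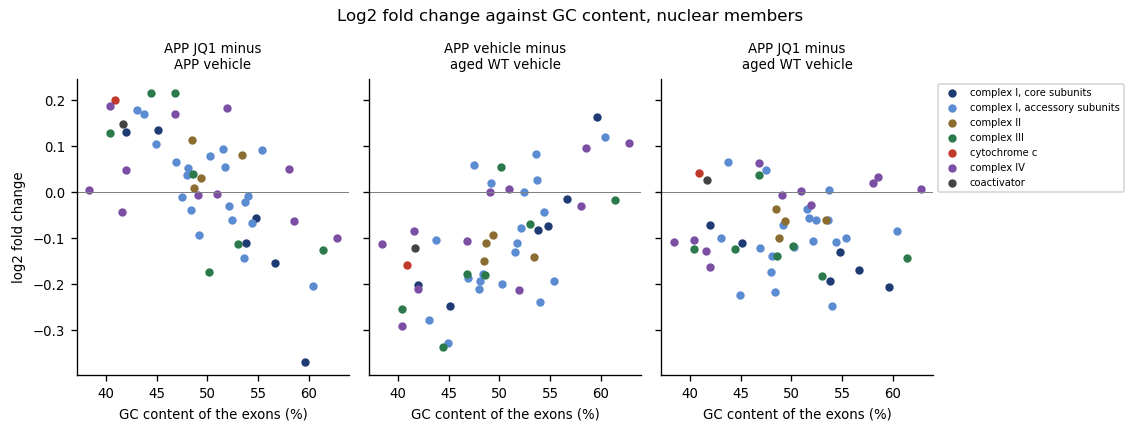
Log2 fold change of each nuclear member (y axis) against the GC content of its exons in percent (x axis), coloured by complex, in the 3 comparisons of aged mice. Points fall from upper left to lower right for JQ1 in APP mice (r = -0.66 across 50 members), rise for vehicle-treated APP against aged WT mice (r = 0.64) and show no slope for JQ1-treated APP against aged WT mice (r = -0.047).

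The second comparison asks how APP mice differ from WT mice under vehicle. The log2 fold change of APP vehicle against aged WT vehicle was below 0 in 40 of 50 members, where 48.4% of all genes were below 0, with a median of -0.11 against 0.0093 over all genes. With the GC and length offset 48 were below 0, with a median of -0.18 (-0.067 over all genes). With that offset 16 members had an unadjusted p under 0.05, as did 3215 of all 16962 genes. With the share of reads outside exons as a covariate 30 were below 0, with a median of -0.038. No member passed the adjusted threshold with edgeR or with DESeq2. Of all genes 2.57% did with edgeR, and with DESeq2 804 of the 18237 given an adjusted p. An unadjusted p under 0.05 was found for 3 members with edgeR, against 14.4% of all genes. With DESeq2 it was found for 4 members and for 2889 genes in all. The values of the groups lay wholly apart in 2 members, Ndufs1 and Sdha, against 6.99% of all genes. The direction also turned on aged WT replicate 1. Without it the median was 0.031 and 30 members were above 0, and without it and APP vehicle replicate 2 the median was 0.10 with 37 above 0. All 3 members with an unadjusted p under 0.05 kept their sign without that mouse.

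Ndufs1 (ENSMUSG00000025968, chr1:63143596-63176833, minus strand) had 142 to 162 CPM with a median of 156 in APP vehicle mice and 211, 176, 170 and 176 CPM in aged WT mice. Every APP vehicle mouse lay below every WT mouse. The log2 fold change was -0.25 (SE 0.083, adjusted p = 0.15, edgeR). The exact two-sided permutation test of 6 and 4 mice gave p = 0.0095, the smallest it can give, so it restates that the groups do not overlap. Without aged WT replicate 1 the log2 fold change was -0.19 (adjusted p = 0.45, edgeR).

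Sdha (ENSMUSG00000021577, chr13:74322254-74350280, minus strand) had 421 to 465 CPM with a median of 441 in APP vehicle mice and 547, 469, 481 and 467 CPM in aged WT mice. The groups did not overlap, though the nearest values differed by little. Its log2 fold change was -0.15 (SE 0.078, adjusted p = 0.40, edgeR), with an exact permutation p of 0.0095, again the smallest possible. The other 3 subunits of complex II were also below 0, and the 4 ranged from -0.15 to -0.092, while without aged WT replicate 1 there was 1 of them above 0.

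Uqcrc2 (ENSMUSG00000030884, chr7:120635176-120659524, plus strand), a core protein of complex III, had 238 to 298 CPM with a median of 291 in APP vehicle mice and 505, 304, 297 and 307 CPM in aged WT mice. The value of aged WT replicate 1 was far above the other 3, which lay just above or within the APP range. The log2 fold change was -0.34 (SE 0.16, adjusted p = 0.34, edgeR) with all mice and -0.12 (adjusted p = 0.85) without that mouse. Ndufb3 (ENSMUSG00000026032, chr1:58586384-58595964, plus strand), an accessory subunit of complex I, had 49.1 to 69.7 CPM with a median of 62.7 in APP vehicle mice and 105, 71.8, 65.1 and 71.5 CPM in aged WT mice. Its log2 fold change was -0.33 (SE 0.13, adjusted p = 0.26, edgeR) with all mice and -0.17 (adjusted p = 0.71) without aged WT replicate 1.

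Uqcrfs1, the Rieske iron-sulfur protein of complex III, had 100 to 140 CPM (median 133) in APP vehicle mice and 161, 143, 132 and 137 CPM in aged WT mice, a log2 fold change of -0.18 (SE 0.098, adjusted p = 0.42, edgeR). Ndufa5 had 81.1 to 118 CPM (median 105) against 138, 116, 101 and 117 CPM, a log2 fold change of -0.20 (SE 0.12, adjusted p = 0.47, edgeR). In both genes the groups overlapped. Cycs was 13.2, 10.2, 9.77 and 7.68 CPM in aged WT mice, a log2 fold change of -0.16 for APP vehicle (SE 0.16, adjusted p = 0.70, edgeR), and Ppargc1a was 61.2, 50.1, 47.9 and 49.5 CPM, a log2 fold change of -0.12 (SE 0.14, adjusted p = 0.74, edgeR). By complex, 5 of 6 core and 15 of 20 accessory subunits of complex I, 6 of 7 subunits of complex III and 8 of 11 of complex IV were below 0, with medians of -0.078, -0.12, -0.18 and -0.085. Beside these members, the microglial markers Cx3cr1, Csf1r and C1qa and the astrocytic markers Gfap and Sox9 were higher in APP vehicle mice past the adjusted threshold of edgeR, and no marker of either list was at 0 in any aged mouse. Without aged WT replicate 1 and APP vehicle replicate 2 together, none of these 5 markers passed (adjusted p from 0.080 to 0.15, edgeR), with log2 fold changes from 0.69 to 3.11.

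**Figure D5:**
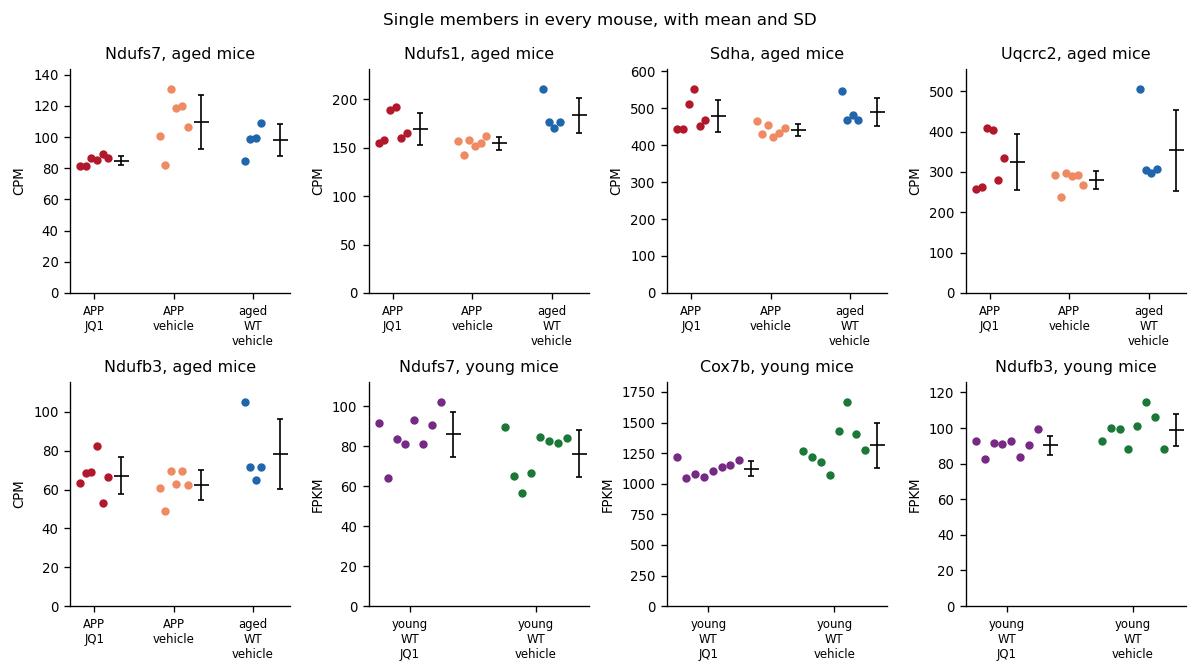
CPM (aged mice) or FPKM (young mice) of single members in every mouse, with the mean and SD of each group beside the points and axes from 0. Ndufs7 lay between 81.2 and 88.9 CPM in all APP JQ1 mice, and aged WT replicate 1 was the highest point of its group for Ndufs1, Sdha, Uqcrc2 and Ndufb3.

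The third comparison sets JQ1-treated APP mice against vehicle-treated aged WT mice, so that genotype and drug differ together, and it shares mice with the other 2 comparisons of aged mice. No member passed with edgeR or DESeq2. Of all genes 2.06% passed with edgeR, and with DESeq2 790 of the 18762 given an adjusted p. With edgeR 1 member had an unadjusted p under 0.05, against 14.1% of all genes. With DESeq2 it was found for 2 members and for 2901 genes in all. In no member did the groups lie apart (3.71% of all genes). The log2 fold change was below 0 in 39 of 50 members (49.9% of all genes), with a median of -0.10 against 0.00065 over all genes. Without aged WT replicate 1 the median was 0.066 with 31 members above 0, and without the library labelled APP JQ1 replicate 4 it was -0.14 with 5 above 0. The share of reads outside exons as a covariate gave a median of 0.070 with 38 above 0. The GC and length offset gave -0.18 (-0.076 over all genes) with 47 below 0. With that offset 17 members had an unadjusted p under 0.05, as did 3356 of all 16962 genes.

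All 6 core subunits of complex I were below 0 in this comparison, from -0.21 to -0.072, with 1 above 0 without aged WT replicate 1 and 2 above 0 with the share of reads outside exons as a covariate. Ndufs3, a core subunit of the arm that reaches into the matrix, had 40.0 to 47.0 CPM (median 43.6) in APP JQ1 mice and 54.3, 45.0, 47.3 and 52.5 CPM in aged WT mice, a log2 fold change of -0.19 (SE 0.089, adjusted p = 0.34, edgeR) and an exact permutation p of 0.057. Ndufs7 had a log2 fold change of -0.21 (SE 0.10, adjusted p = 0.40, edgeR) and Ndufv1 of -0.17 (SE 0.089, adjusted p = 0.42, edgeR). Ndufv1 was 213, 194, 203 and 214 CPM in aged WT mice, and all 6 APP JQ1 mice, at up to 197 CPM, lay below the WT median.

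In complex III, Uqcrc1, a core protein, had 212 to 278 CPM (median 249) in APP JQ1 mice and 306, 269, 273 and 286 CPM in aged WT mice, a log2 fold change of -0.18 (SE 0.091, adjusted p = 0.38, edgeR). Cyc1, the heme subunit cytochrome c1, had 168 to 219 CPM (median 198) against 211, 220, 214 and 215 CPM, a log2 fold change of -0.14 (SE 0.093, adjusted p = 0.54, edgeR). Ndufb3, with 53.1 to 82.6 CPM (median 67.4) in APP JQ1 mice, had a log2 fold change of -0.22 (SE 0.13, adjusted p = 0.50, edgeR), and -0.057 without aged WT replicate 1. For Cycs the log2 fold change was 0.042 and for Ppargc1a 0.026, with adjusted p-values of 0.94 and 0.96 (edgeR). The groups of all these genes overlapped.

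In young WT mice the fourth comparison asks what JQ1 changed without the transgenes. No member of the 49 passed with limma on log2(FPKM + 0.1), where 0.00543% of the 18420 loci, 1 locus, did. An unadjusted p under 0.05 was found for 3 members (4.65% of all loci), and in none did the groups lie apart (0.0271% of all loci). Log2 fold changes were above 0 in 22 members and below 0 in 27 (48.9% of all loci were below 0), with a median of -0.0059 against 0.0025 over all loci. Without JQ1 replicate 8 there were 13 above 0 and 36 below, with a median of -0.035, and without JQ1 replicate 3 there were 15 and 34, with a median of -0.022. All 49 intervals lay within 0.5 log2 units of 0, narrower than in the aged mice, with a median half-width of 0.13 against 0.25 for JQ1 in APP mice. The depth of these libraries is unknown, since FPKM carry no counts.

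Cox7b (ENSMUSG00000031231, chrX:106015700-106022450, plus strand), a small subunit of complex IV needed for its assembly, ran from 1043 to 1221 FPKM with a median of 1121 with JQ1 and from 1075 to 1665 FPKM with a median of 1268 with vehicle. All 8 JQ1-treated mice lay below the vehicle median, but the groups overlapped. Its log2 fold change was -0.22 (SE 0.072, adjusted p = 0.98, limma), and the exact permutation p of 8 and 8 mice was 0.0084 before any adjustment. In APP mice Cox7b had a log2 fold change of 0.048 with JQ1, and the 2 experiments were not tested against each other.

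Ndufb3 had 82.4 to 99.2 FPKM (median 91.1) with JQ1 and 88.0 to 114 FPKM (median 99.6) with vehicle, a log2 fold change of -0.13 (SE 0.055, adjusted p = 0.98, limma). Sdhc, a membrane anchor of complex II, had 122 to 154 FPKM (median 146) against 141 to 165 FPKM (median 154), a log2 fold change of -0.12 (SE 0.053, adjusted p = 0.98, limma). Ndufs7 had 64.4 to 102 FPKM (median 87.2) against 56.8 to 89.5 FPKM (median 82.0), a log2 fold change of 0.18 (SE 0.10, adjusted p = 0.98, limma), of the opposite sign to that in APP mice, and this difference was not tested. Ndufa1 had 146 to 196 FPKM (median 169) against 163 to 211 FPKM (median 182), a log2 fold change of -0.10 (SE 0.062, adjusted p = 0.98, limma). The locus that joins Uqcrb with Mterfd1 had 125 to 145 FPKM (median 138) against 128 to 159 FPKM (median 148), a log2 fold change of -0.084 (SE 0.047, adjusted p = 0.98, limma). Cycs had 97.6 to 134 FPKM (median 120) against 116 to 130.0 FPKM (median 121), a log2 fold change of -0.048 (SE 0.055, adjusted p = 0.98, limma). Ppargc1a had 11.7 to 14.3 FPKM (median 13.1) against 11.9 to 15.1 FPKM (median 13.4), a log2 fold change of -0.040 (SE 0.053, adjusted p = 0.98, limma). In all of these the groups overlapped.

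Other genes of the pathway were counted in lists made by function. Of the 21 tested further subunits of complexes I to IV, Cox6a2 passed in vehicle-treated APP against aged WT mice (5.11 ± 1.35 CPM, SD, n = 6, against 2.35 ± 0.440 CPM, SD, n = 4), a log2 fold change of 1.12 (SE 0.22, adjusted p = 0.0096, edgeR). Without aged WT replicate 1 its log2 fold change was 1.05 with an adjusted p of 0.051, and with APP vehicle replicate 2 left out as well 1.11 with an adjusted p of 0.075 (edgeR). It encodes the form of subunit VIa that is best known from heart and skeletal muscle, and its level was far below that of its sister form Cox6a1, a member with 347 ± 48.4 CPM (SD, n = 6) in APP vehicle mice. No other further subunit passed in any comparison, nor did any of the 18 tested genes of ATP synthase in aged mice or 19 in young mice, the 43 or 37 assembly factors, or the 24 or 19 regulators of mitochondrial biogenesis. Of the 16 citric acid cycle genes, Suclg2, a subunit of succinyl-CoA ligase, was higher in JQ1-treated APP than in aged WT mice, at 12.7 ± 2.26 CPM (SD, n = 6) against 8.38 ± 0.498 CPM (SD, n = 4), a log2 fold change of 0.60 (SE 0.15, adjusted p = 0.043, edgeR). This call was lost without any single aged WT mouse, and over all mice left out in turn the adjusted p ran from 0.0072 to 0.16 at log2 fold changes of 0.53 to 0.67.

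With JQ1 in APP mice the median log2 fold changes of these lists were 0.011 for the further subunits, 0.048 for ATP synthase, 0.028 for assembly factors, 0.064 for the regulators and 0.050 for the citric acid cycle, and in vehicle-treated APP against aged WT mice -0.080, -0.13, -0.091, -0.13 and -0.14. Of the 24 regulators, 7 had an unadjusted p under 0.05 with JQ1 in APP mice (edgeR), where 17.6% of all genes did, and none passed. Cytosolic ribosomal proteins, also short and abundant transcripts, had medians of 0.026 and 0.11 in these comparisons, the latter on the other side of 0 from the members. All these medians are over all mice. Without aged WT replicate 1 the median of the members in vehicle-treated APP against aged WT mice turned from -0.11 to 0.031. The medians of these lists without that mouse are not given here.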

How the data were processed

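RNA of CA1 tissue from 33 listed mice in 5 groups was sequenced, and 32 mice had values. For the 16 aged mice the authors aligned reads to mm10 with STAR (at most 2 mismatches) and deposited raw HTSeq counts per gene. For the 16 young mice the deposited values are FPKM per locus from TopHat and Cufflinks, normalised by the authors, with no counts. CASAVA 1.8.2 is named in the submitters' processing notes. The annotation version and strand setting were not given in the sources used here, so overlapping and antisense genes cannot be told apart. Columns of genes were joined to symbols, lengths and GC content with GENCODE M21.

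Counts were tested with edgeR 4.0.16 (TMM factors, filterByExpr, robust quasi-likelihood fit of the 3 aged groups together, 16962 genes). CPM use TMM-scaled totals. FPKM were tested with limma 3.58.1 (trend and robust) on log2(FPKM + 0.1) for 18420 loci with at least 0.5 FPKM in 8 of 16 mice, a scale that understates changes of low genes. P-values were adjusted by Benjamini-Hochberg over all features, with a threshold of 0.05. Single members were also tested by exact two-sided permutation over mice, whose smallest possible p was 0.0022 for 6 against 6 and 0.00016 for 8 against 8. For 6 against 4 the smallest possible p is the one that groups without overlap give. Intervals are 95%. Scripts were tested on simulated data. DESeq2 1.42.0, other scalings and filters, a GC and length offset (spline with 5 degrees of freedom), a replicate block and leaving out each mouse were alternatives. A fit with a pair of mice left out and one with the reads outside exons as a covariate were added after seeing the data.

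The members named in each comparison are those past the threshold, otherwise the 6 of lowest p, with Cycs, Ppargc1a and the highest and lowest member per length of each complex. The members and lists were chosen with earlier results of these data known. Labels do not say that replicates with the same number share an animal, and each sample is taken as 1 mouse.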

Additional observations from a re-analysis of the deposited data

Results flagged for a closer look

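Within a group, a mouse was singled out when its gap to the nearest other mouse took up more of the group's range than Dixon's 95% limit allows. Of 100 groups of values tested, 12 had such a mouse. The groups hold the same mice and members that varied together, so the 12 are not independent and cannot be set against a rate of chance. For the median deviation of the members, the mice singled out were APP vehicle replicate 2 at -0.39 (others -0.071 to 0.12) and aged WT replicate 1 at 0.38 (others -0.080 to -0.022).

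APP vehicle replicate 2 was low for Ndufv1 (170.5 CPM, others 201 to 218), Cox7b (120.9 CPM, others 170 to 202) and Sdhc (86.9 CPM, others 112 to 117). Aged WT replicate 1 was high for Ndufs1 (210.5 CPM, others 170 to 176), Uqcrc2 (505 CPM, others 297 to 307) and Uqcrb (47.2 CPM, others 29.4 to 30.7). In APP JQ1 replicate 2, Ndufv1 was low at 146 CPM (others 181 to 197).

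In young mice, Ndufa13 was low in JQ1 replicate 2 (50.7 FPKM, others 64.8 to 79.2), Sdha in vehicle replicate 4 (332 FPKM, others 370.4 to 409) and the locus holding Uqcrb in JQ1 replicate 4 (125 FPKM, others 136 to 145). No cause of these values was tested.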

How the results depend on the processing

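Of 1030 values from alternatives over 40 results, 201 of 206 for member counts and medians, and 803 of 824 for named genes, kept their direction and their side of the threshold or moved by less than the spread between mice. In aged mice this spread was 0.20, more than the size of any main median there. A median whose sign turned could thus be among the 201. Without aged WT replicate 1 it turned from -0.11 to 0.031 for vehicle-treated APP against aged WT mice. For JQ1-treated APP against aged WT mice it turned from -0.10 to 0.066. The number of members past the threshold for JQ1 in APP mice rose to 1, Ndufs7, with DESeq2 and with APP vehicle replicate 2 and aged WT replicate 1 both left out, and ran from 0 to 1 over single mice left out. With both mice left out the median for vehicle-treated APP against aged WT mice was 0.10 in place of -0.11. Reversed values for JQ1 in APP mice came with the GC and length offset (Ppargc1a -0.025, Ndufa13 0.046, Ndufv1 0.015, Cycs -0.029) and with the replicate block and that offset together (Ppargc1a -0.021, Ndufa13 0.049, Ndufv1 0.011, Cycs -0.025). In JQ1-treated APP against aged WT mice the same settings gave Ppargc1a -0.099 and -0.12 and Cycs -0.13 and -0.19. Single mice left out turned Ppargc1a there to -0.021 (APP JQ1 replicate 3), -0.065 (APP JQ1 replicate 4) and -0.023 (aged WT replicate 4), in a range up to 0.11, and Cycs to -0.040 (APP JQ1 replicate 3) and -0.069 (aged WT replicate 5), in a range up to 0.19. The cause was not tested.

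On average same-numbered mice did not deviate together (mean r -0.023 over 14 aged pairs and 0.026 over 8 young pairs). Single pairs varied, with r from -0.47 to 0.34 in aged mice, where 4 were over 0.1. In young mice r ran from -0.070 to 0.10, with 1 over 0.1. With the replicate block no member passed, and the medians were 0.035, -0.053, -0.028 and -0.0059 in the order of the comparisons. Genes called in all moved from 184 to 749 with DESeq2, 42 with the offset (35 higher, against 105 of 184), 87 with the block, 33 with both, 524 with the covariate and 574 without both mice for JQ1 in APP mice. For vehicle-treated APP against aged WT mice they moved from 436 to 804 (DESeq2), 679 (only the 2 groups), 35 (block), 29 (block and offset) and 0 without both mice (edgeR, 1891 at an unadjusted p under 0.05), and from 65 to 446, 154 to 601 and 11 to 651 over single mice left out in the 3 aged comparisons. For JQ1-treated APP against aged WT mice they moved from 349 (327 higher) to 790 (DESeq2, 685 higher), 517 (offset, 338 higher), 227 (only the 2 groups), 21 (block), 36 (block and offset), 117 (covariate) and 55 (without both mice). Alternatives for the mitochondrially encoded members were not run.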
